A study of Mus musculus with 8 samples.

Results

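Cholesterol is built in the liver from acetyl-CoA, taken up there from circulating lipoproteins, moved between membranes and lysosomes, and stored as cholesteryl ester. The 31 genes described here cover these steps. They were listed by symbol: 20 enzymes of the mevalonate, squalene and sterol steps (19 of the way from acetyl-CoA to cholesterol and *Ggps1*, which branches off it), 2 subunits of the enzyme that starts dolichol from the same isoprenoids, 7 genes of cholesterol uptake and transport, and 2 that esterify cholesterol. A probe was found for 30 of the 31 genes, out of 22911 genes with a named probe on the array, and no probe was matched to *Acat2*, the cytosolic thiolase that opens the pathway. Each gene was read from its brightest probe. The probes of 29 genes were well above background on all 8 arrays and were tested. *Npc1l1*, a sterol transporter of the intestinal brush border that mouse liver is known to express weakly, was not well above background in any mouse and gets no fold change.

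The livers came from 10-week-old male C57BL/6 mice, 4 *Agpat3* wild-type (WT) and 4 *Agpat3* knockout (KO) mice, and each mouse was read on 1 one-color Agilent array. AGPAT3 is an acyltransferase that places docosahexaenoic acid into newly made phospholipids, and the KO mice lack it in every tissue, so that an effect in the liver cannot be told apart from an effect of its loss elsewhere. The arrays shared 1 slide and 1 scan. WT samples filled slide row 1 and KO samples row 2, and these 2 differences cannot be told apart. Signals are given as log2 of the processed signal minus log2 of its 75th percentile on the array, and that percentile lay between 261 and 309 intensity units, over a local background of 27 to 32. The number of arrays limits the precision of every value.

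In the pathway, mevalonate is phosphorylated and decarboxylated to isopentenyl diphosphate, whose condensation gives farnesyl diphosphate, and 2 farnesyl units are joined to squalene and closed to lanosterol. Lanosterol is then demethylated, reduced and isomerized to cholesterol. In liver the transcription of these enzymes is known to be driven mainly by SREBP2, the product of *Srebf2*, while SREBP1c, a product of *Srebf1*, mainly drives fatty acid synthesis. SREBP precursors leave the endoplasmic reticulum with the escort protein SCAP when membrane sterol is low.

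Promoters of this pathway are known for binding SREBP beside NF-Y and Sp1, and the bases before the start of the called genes with a window at hand, *Pmvk* and *Lss*, are shown for this reason. *Hmgcs1* was added after the matches were seen, as the member whose window matched the string searched for the sterol regulatory element. Each line gives the 250 bases before a RefSeq transcript start, from 5′ to 3′ on the strand of the gene, in GRCm38.p6. The windows are chr3:89454291-89454540 for *Pmvk*, chr10:76531355-76531604 for *Lss* and chr13:119690101-119690350 for *Hmgcs1*, all on the plus strand. Capitals mark matches, on either strand, to 3 strings: CCAAT (read by NF-Y), GGGCGG (a GC box, read by Sp1) and TCACNCCAC (a sterol regulatory element).
Pmvk: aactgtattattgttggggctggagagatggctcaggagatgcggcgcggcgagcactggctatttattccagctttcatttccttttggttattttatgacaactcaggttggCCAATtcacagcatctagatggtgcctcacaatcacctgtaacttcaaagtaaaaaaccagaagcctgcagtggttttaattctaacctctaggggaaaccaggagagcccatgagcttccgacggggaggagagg
Lss: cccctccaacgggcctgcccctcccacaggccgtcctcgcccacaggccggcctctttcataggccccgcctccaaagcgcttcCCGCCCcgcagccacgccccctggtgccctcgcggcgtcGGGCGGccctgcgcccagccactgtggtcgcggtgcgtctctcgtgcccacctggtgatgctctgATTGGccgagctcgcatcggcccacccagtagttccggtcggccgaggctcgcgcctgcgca
Hmgcs1: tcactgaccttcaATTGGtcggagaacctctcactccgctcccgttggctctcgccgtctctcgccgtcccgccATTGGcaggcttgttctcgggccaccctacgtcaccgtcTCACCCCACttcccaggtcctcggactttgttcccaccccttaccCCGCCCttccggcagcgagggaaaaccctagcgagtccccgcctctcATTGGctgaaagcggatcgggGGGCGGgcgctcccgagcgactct

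The table gave 2 windows for *Pmvk*. The one shown held 1 CCAAT match, 136 bases before its start, and the other, at chr3:89459321-89459570, held 0 matches to the 3 strings. Which start of *Pmvk* is used in liver was not determined. Its main promoter may lie outside both windows, so the lack of other matches says nothing about that promoter. The *Lss* window held 1 CCAAT match at 62 bases and GC boxes at 127 and 166 bases before the start. In *Hmgcs1* the match to TCACNCCAC began 137 bases before the start, among 3 CCAAT matches and 2 GC boxes. Windows were at hand for 24 of the 31 members. CCAAT occurred in at least 1 window of 22 of these 24 (91.7%), against 37.5% of 27025 genes, and a GC box in 19 (79.2%), against 35.4%. The string TCACNCCAC occurred in 1 of the 24 (4.17%), against 1.22% of all genes. Other forms of the sterol regulatory element were not searched, so this share does not tell how many promoters lack one. The counts are of letters that match, and no binding was measured here.

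*Agpat3* itself checked the labels. Its log2 signals in WT mice were 5.65, 5.66, 5.80 and 5.88, against -0.48, 0.02, -0.58 and -0.47 in KO mice. No KO value came near a WT value. Its log2 fold change, KO minus WT, was -6.12 (standard error 0.14; limma, Benjamini-Hochberg adjusted p = 4.46e-07), and its signal was still well above background on the KO arrays. Which part of the transcript the probe reads was not determined.

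The comparison asked whether the cholesterol genes differed between KO and WT liver. 3 of the 29 tested members rose in KO liver, *Pmvk*, *Fdps* and *Lss*, by 1.73- to 1.86-fold, and 0 fell. Calls needed a change of more than 1.5-fold together with an adjusted p under 0.2. By the same rule 1.01% of all 14065 tested genes were called higher and 0.754% lower, against 10.3% and 0 of the members, and among 29067 probes 0.939% were called higher and 0.726% lower. An unadjusted p under 0.05 was found for 11 members, all of them with higher signals in KO, against 5.70% of all genes in that direction, and for 0 members with lower signals. The fitted difference was above 0 for 24 of the 29 members and for 42.0% of all genes, with a median of 0.34 for the members and -0.03 for all genes on the log2 scale. RNA of whole liver was measured, so that a change in the number of cells of a type and a change in RNA per cell cannot be told apart.

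**Figure D1:**
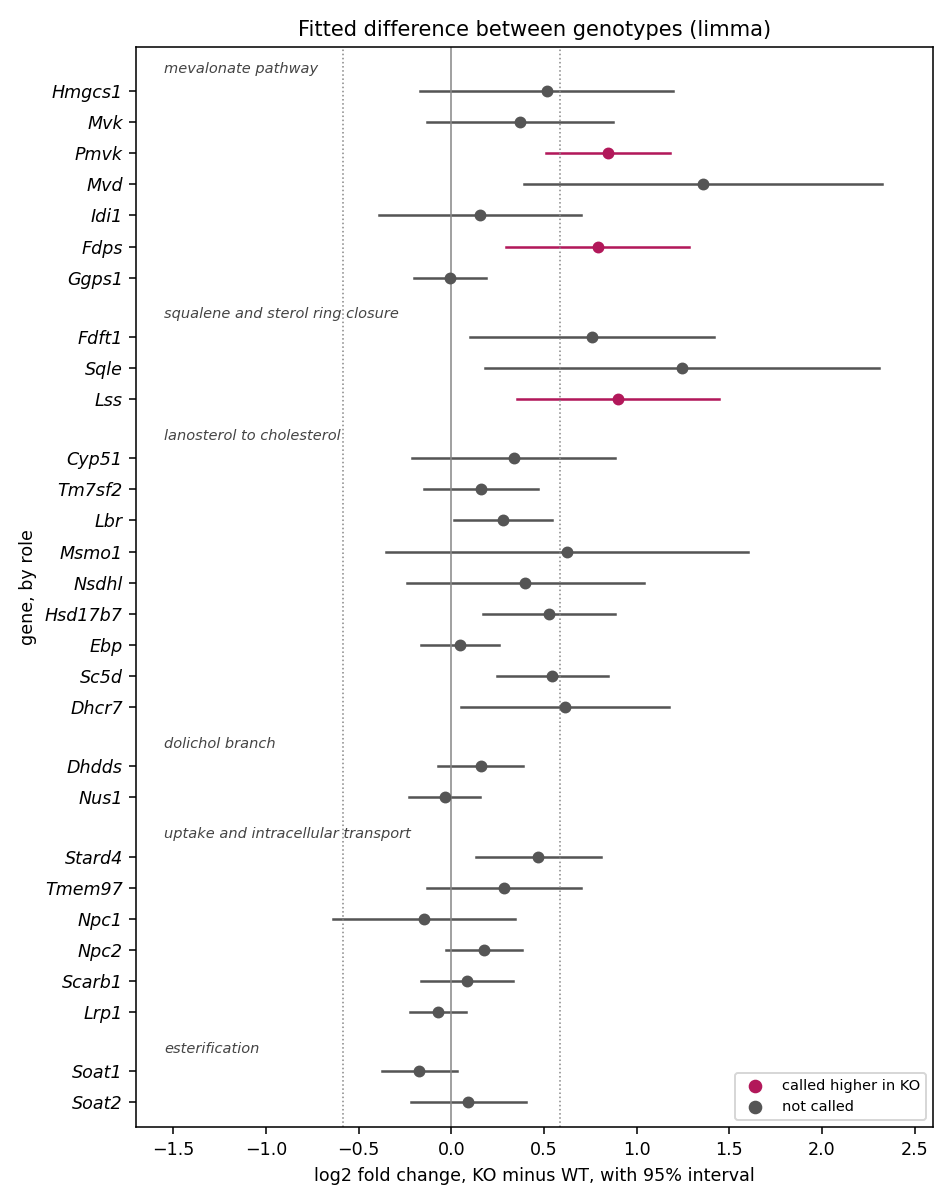
Log2 fold change, KO minus WT, of each of the 29 tested members (points) with its 95% interval from limma (lines), ordered by role from top to bottom. Dotted lines mark a fold change of 1.5 in either direction, and magenta marks the 3 genes called higher, *Pmvk*, *Fdps* and *Lss*. The intervals of most synthesis enzymes lie mainly to the right of 0. Of the transport and esterification genes, that of *Stard4* lies wholly above 0 and the others include 0.

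The 19 measured enzymes of the mevalonate, squalene and sterol steps, *Ggps1* included, held all 3 calls. Their median log2 fold change was 0.53, and 18 of the 19 lay above 0, the exception being *Ggps1* at -0.01. All 4 KO values lay above the WT mean in 14 of the 19 enzymes (73.7%), in 3 of the other 10 members and in 14.3% of all genes. The other 10 tested members, which act in dolichol synthesis, transport and esterification, had a median of 0.09 with 0 called. 6 of the 10 lay above 0. With 1 mouse left out the median of these 10 ran from 0.024 (without WT mouse 1) to 0.16 (without WT mouse 4). Without KO mouse 4, 1 of them was called.

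Of the mevalonate pathway, 2 of the 7 measured enzymes rose. *Pmvk* encodes phosphomevalonate kinase, which adds the second phosphate to mevalonate. Its log2 signals were 4.43, 4.94, 4.67 and 5.0 in WT mice 1 to 4 and 5.73, 5.52, 5.79 and 5.39 in KO mice 1 to 4. The lowest KO value lay above the highest WT value. The log2 fold change was 0.85 (standard error 0.15, 95% interval 0.51 to 1.18, adjusted p = 0.0631), which is 1.80-fold, and the exact two-sided permutation test gave p = 0.0286, the smallest that 4 against 4 mice allow. A second probe of *Pmvk* gave 0.88 (adjusted p = 0.0789) and was called too. *Pmvk* was called with each of the 8 mice left out in turn, with adjusted p between 0.0806 and 0.176.

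*Fdps* encodes farnesyl diphosphate synthase, whose product is the last one shared by sterols, dolichol and prenylated proteins. Its log2 signals in WT mice 1 to 4 were 5.38, 6.10, 5.81 and 6.06, against 6.86, 6.61, 6.92 and 6.12 in KO mice 1 to 4. The groups did not overlap, but KO mouse 4 lay just above WT mouse 2. The log2 fold change was 0.79 (standard error 0.22, 95% interval 0.29 to 1.29, adjusted p = 0.182; exact permutation p = 0.0286). The call was lost without WT replicate 1, 2 or 3, where the adjusted p was 0.278, 0.244 and 0.356. It was lost as well without KO replicate 1, 2 or 3, where the adjusted p was 0.305, 0.316 and 0.290. Without a filter on dim probes the adjusted p was 0.398.

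*Mvd*, the decarboxylase that makes isopentenyl diphosphate, had the largest fitted difference of the members and was not called. Its log2 fold change was 1.36 (standard error 0.42, 95% interval 0.39 to 2.32, adjusted p = 0.227). WT values ran from -0.12 to 1.65 and KO values from 1.17 to 2.65, and the groups overlapped through WT mouse 2 and KO mouse 4. It was called without either of these mice (adjusted p = 0.182 without WT replicate 2 and 0.170 without KO replicate 4), and with normexp background correction (adjusted p = 0.193).

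The other mevalonate enzymes were not called. *Hmgcs1*, the cytosolic HMG-CoA synthase, had a log2 fold change of 0.52 (95% interval -0.17 to 1.20), with WT mouse 4 at 6.12 and 3 of the KO mice below it. *Mvk*, mevalonate kinase, had 0.37 (95% interval -0.13 to 0.87). *Idi1*, the isopentenyl diphosphate isomerase, had 0.16 (95% interval -0.39 to 0.70), and its sign turned without WT replicate 1 or KO replicate 3, to -0.020 and -0.0043. *Ggps1*, the enzyme that extends farnesyl to geranylgeranyl diphosphate and so leads away from sterols, had the narrowest interval of the 7, -0.20 to 0.19. Its 5 tested probes all lay below 0, at -0.34 for the lowest (adjusted p = 0.190), while the sign of the brightest probe turned in 4 of the 18 alternatives.

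The squalene steps had the highest median of the roles, 0.90 over 3 enzymes. *Lss*, lanosterol synthase, rose. It closes epoxidized squalene to the first sterol of the pathway. Its log2 signals in WT mice were 1.96, 2.77, 2.41 and 2.72, against 3.32, 3.40, 3.85 and 2.88 in KO mice. All KO values lay above all WT values, with KO mouse 4 the nearest to WT. The log2 fold change was 0.90 (standard error 0.24, 95% interval 0.35 to 1.44, adjusted p = 0.168; exact permutation p = 0.0286). Its other tested probes gave 0.98 (adjusted p = 0.126, called) and 1.01 (adjusted p = 0.229). The call was lost without WT replicate 1, 2 or 3 (adjusted p = 0.263, 0.232 and 0.342), and without KO replicate 1, 2 or 3 (adjusted p = 0.267, 0.312 and 0.254). Without a filter on dim probes the adjusted p was 0.376. *Lss* lies on chromosome 10 with *Agpat3*, as do *Nus1* and *Lrp1*, which had -0.04 and -0.07. Their promoter windows begin at chr10:76531355 (*Lss*), chr10:52417297 (*Nus1*) and chr10:127621149 (*Lrp1*). *Nus1* and *Lrp1* are thus not close neighbors of *Lss*, and their values do not speak for its surroundings. How far any of these genes lies from *Agpat3* was not determined.

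*Sqle* and *Fdft1* were not called. *Sqle*, squalene epoxidase, which uses oxygen to prepare squalene for ring closure, differed by 1.25 log2 units (standard error 0.46, 95% interval 0.18 to 2.31, adjusted p = 0.304). Its WT values spread over 2.17 log2 units, from 2.14 in WT mouse 1 to 4.31 in WT mouse 4, and its KO values over 0.99, from 4.22 to 5.21. *Fdft1*, squalene synthase, had 0.76 (95% interval 0.10 to 1.42, adjusted p = 0.309), with WT values from 3.71 to 5.0 and KO values from 4.94 to 5.60. In both genes the KO range met only the upper part of the WT range.

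0 of the 9 enzymes from lanosterol to cholesterol were called, and all 9 fitted differences lay above 0, with a median of 0.40 and a range from 0.05 to 0.62. *Sc5d*, the desaturase that makes 7-dehydrocholesterol, came nearest to the threshold. Its log2 signals in WT mice were 5.88, 6.23, 6.23 and 6.44, against 6.61, 6.69, 6.96 and 6.70 in KO mice. All KO values lay above all WT values. Its adjusted p passed (0.136; exact permutation p = 0.0286), and its fold change of 1.46 (log2 0.54, standard error 0.13) was short of 1.5. An adjusted p under 0.2 was found for 4 of the 29 members, the 3 called and *Sc5d*, and for 4.33% of all genes. The same 4 were the members whose groups did not overlap with KO above WT, as in 3.84% of all genes. By the brightest probe 0 members had every KO value below every WT value, which 5.89% of all genes had. Among dimmer tested probes of members outside these 4, a probe of *Ggps1* had every KO value below every WT value. Those of *Fdft1* and *Stard4* had every KO value above.

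Among the other late enzymes, *Hsd17b7*, the ketosteroid reductase of the C4 demethylation, had 0.53 (95% interval 0.17 to 0.88, adjusted p = 0.207), and *Dhcr7*, which reduces 7-dehydrocholesterol to cholesterol, had 0.61 (95% interval 0.05 to 1.17, adjusted p = 0.335). Without WT replicate 4 these 2 genes and *Sc5d* were called (adjusted p = 0.157, 0.188 and 0.117), and without KO replicate 4 *Hsd17b7* was called (adjusted p = 0.191). *Msmo1*, the methylsterol monooxygenase, had 0.62 with the widest interval of this role, -0.35 to 1.6, since its WT values ran from 3.87 to 6.01. *Nsdhl*, the dehydrogenase of the same demethylation, had 0.40, *Cyp51*, the lanosterol demethylase, 0.34, and *Lbr*, a sterol reductase of the inner nuclear membrane, 0.28 (95% interval 0.01 to 0.54). *Tm7sf2*, the sterol reductase of the endoplasmic reticulum, had 0.16. *Ebp*, the sterol isomerase, had 0.05 (95% interval -0.16 to 0.26), and its sign turned without KO replicate 3, to -0.032.

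**Figure D2:**
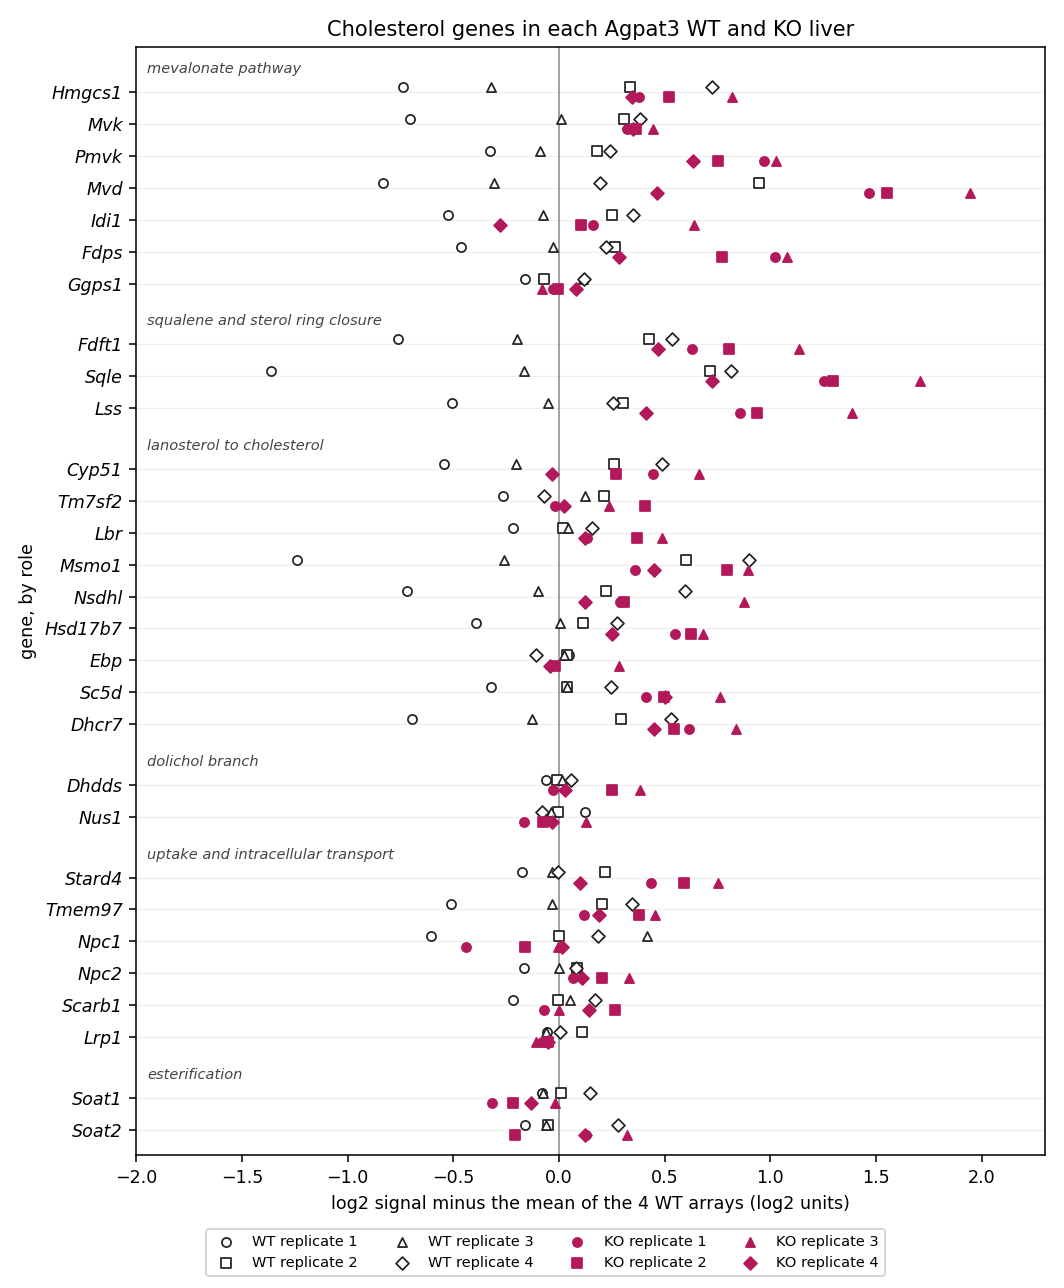
Log2 signal of each member on each array minus the mean of the 4 WT arrays for that gene, with WT mice as open symbols and KO mice as filled symbols, 1 shape per replicate number. WT replicate 1 (open circles) is the lowest WT mouse in 18 of the 19 synthesis enzymes, and *Pmvk*, *Fdps*, *Lss* and *Sc5d* are the genes in which all filled symbols lie to the right of all open ones.

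Uptake, transport and esterification genes were not called. In *Stard4*, a soluble carrier of sterol between membranes, the log2 fold change was 0.47 (standard error 0.15, 95% interval 0.13 to 0.81, adjusted p = 0.234). Its WT values ran from 3.34 to 3.74 and its KO values from 3.62 to 4.27, and it was called without KO replicate 4 (adjusted p = 0.128). A dimmer probe of *Stard4* gave 0.58 (adjusted p = 0.162), just short of the log2 threshold of 0.585. *Tmem97*, a membrane protein that binds NPC1, had 0.29 (95% interval -0.13 to 0.70), and 0.11 without WT replicate 1. The proteins NPC1 and NPC2 release cholesterol from lysosomes, and *Npc1* and *Npc2* had -0.15 and 0.18. With 1 mouse left out *Npc1* ran from -0.35 (without WT replicate 1) to -0.0088 (without WT replicate 3). *Scarb1*, the receptor for high-density lipoprotein, had 0.08 (95% interval -0.17 to 0.33) and *Lrp1*, an endocytic receptor for lipoprotein remnants, -0.07 (95% interval -0.22 to 0.08). The intervals of *Scarb1* and *Lrp1* end short of a 1.5-fold change in either direction. With 1 mouse left out *Scarb1* ran from 0.011 (without WT replicate 1) to 0.14 (without WT replicate 4), and *Lrp1* was -0.036 without WT replicate 2.

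*Soat1* and *Soat2* encode the acyltransferases that form cholesteryl esters. Their log2 fold changes were -0.17 (95% interval -0.38 to 0.03) and 0.09 (95% interval -0.22 to 0.40). With 1 mouse left out *Soat2* ran from 0.014 (without KO replicate 3) to 0.19 (without KO replicate 2). *Dhdds* and *Nus1*, the subunits of the cis-prenyltransferase that makes the dolichol chain, had 0.16 and -0.04. *Dhdds* had 0.083 without KO replicate 3. The sign of *Nus1* turned without WT replicate 1 (0.0053) or KO replicate 1 (0.0072). Of the 26 members that were not called, 14 had an interval that reached above a 1.5-fold increase.

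Other probes of the same genes gave the same signs. 20 further probes of 16 members were tested, and all 20 had the sign of the brightest probe of their gene, at most 0.33 log2 units away. 2 of the 20 were called higher, those of *Pmvk* and *Lss*.

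The 19 synthesis enzymes varied together between mice of 1 genotype. Their median, relative to the WT mean of each gene, was -0.53, 0.26, -0.08 and 0.27 in WT mice 1 to 4 and 0.41, 0.52, 0.82 and 0.35 in KO mice 1 to 4. WT mouse 1 stood lowest and KO mouse 3 highest, and the lowest KO mouse, 4, was 0.07 above the highest WT mouse. WT mouse 1 was the lowest WT mouse in 18 of the 19 enzymes and in 32.3% of all genes. KO mouse 3 was the highest KO mouse in 17 of the 19 and in 37.0% of all genes, and KO mouse 4 the lowest in 14 of the 19 and in 21.6%. Markers of Kupffer cells and leukocytes moved with WT mouse 1 too, which was the lowest WT mouse in 10 of 10 of them (median -0.41). In KO the lowest mouse for these markers was 1 (10 of 10, median -0.55) and the highest was 3 (9 of 10), while KO mouse 1 was the lowest in 4 of the 19 enzymes. Their part in the result was not tested. Over the other 10 members the medians ran from -0.16 to 0.12 in WT and from -0.05 to 0.22 in KO, and overlapped.

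The spread within WT was larger than that within KO. The SD over the 4 WT mice exceeded the SD over the 4 KO mice in 15 of the 19 enzymes (78.9%), with median SDs of 0.40 and 0.21 log2 units. In all genes the WT SD was the larger one in 53.9%, with medians of 0.149 and 0.141. The difference between genotypes over the 19 enzymes rested in part on WT mouse 1. Without it the median log2 fold change of the enzymes was 0.27 in place of 0.53, and without WT mouse 4 it was 0.63. With any of the other 6 mice left out it lay between 0.47 and 0.57. Without WT mouse 1 the differences of 9 uncalled enzymes shrank by more than 1.5 times with their sign kept, to 0.27 in *Hmgcs1*, 0.14 in *Mvk*, 0.51 in *Fdft1*, 0.79 in *Sqle*, 0.15 in *Cyp51*, 0.074 in *Tm7sf2*, 0.21 in *Msmo1*, 0.16 in *Nsdhl* and 0.38 in *Dhcr7*. The sign of *Idi1* turned, as given above. The difference of *Nsdhl* was 0.24 without KO mouse 3 and that of *Tm7sf2* 0.081 without KO mouse 2.

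Mice of the same replicate number lay in the same column of the slide, 1 of each genotype, so the genotypes were also compared within columns. The median of KO minus WT over the 19 enzymes was 1.03, 0.25, 0.97 and -0.04 log2 units in columns 1 to 4. The difference was large in columns 1 and 3 and absent from the median in column 4. *Pmvk* differed by 1.3, 0.58, 1.12 and 0.39, *Lss* by 1.36, 0.63, 1.44 and 0.16 and *Fdps* by 1.49, 0.51, 1.1 and 0.06, with KO above WT in all 4 columns. With the column as a block *Pmvk* was still called (adjusted p = 0.149), and *Fdps* (adjusted p = 0.243) and *Lss* (adjusted p = 0.205) were not.

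**Figure D3:**
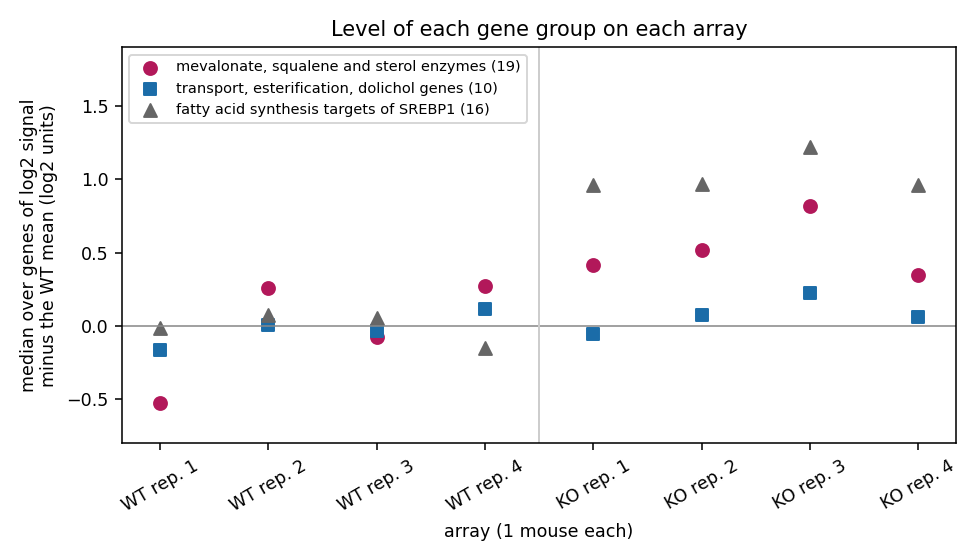
Median over the genes of a list of log2 signal minus the WT mean, for each of the 8 mice, in the 19 synthesis enzymes (circles), the other 10 members (squares) and 16 fatty acid synthesis targets of SREBP1 (triangles). The enzymes run from -0.53 to 0.27 in WT and from 0.35 to 0.82 in KO, while the fatty acid targets run from -0.15 to 0.08 and from 0.96 to 1.22.

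**Figure D4:**
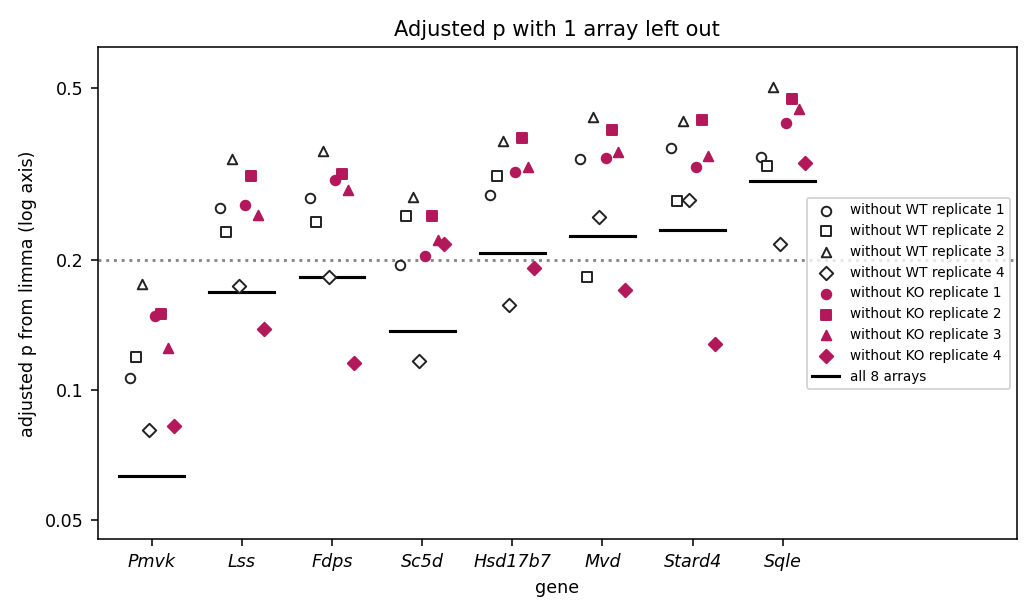
Adjusted p from limma (log axis) for 8 members with 1 array left out, with a bar for the fit of all 8 arrays and a dotted line at 0.2, the threshold for a call. *Pmvk* stays under the line without any of the mice, and *Lss* and *Fdps* stay under it without WT replicate 4 or KO replicate 4.

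Feeding state and time of day are known to move cholesterol synthesis genes, so genes of both were read on the same arrays. 0 of 8 fasting and feeding genes were called, with a median log2 fold change of 0.46. The gluconeogenic genes *Pck1* and *G6pc* had -0.01 and 0.54, their coactivator *Ppargc1a* 0.60 (adjusted p = 0.237) and the hormone gene *Fgf21* 0.73 (adjusted p = 0.700). The differences of *G6pc* and *Fgf21* leaned on single mice. *G6pc* was at 5.30 in WT mouse 2 (6.44 to 7.02 in the other WT mice) and at 5.69 in KO mouse 3 (7.30 to 7.52 in the other KO mice). *Fgf21* was at -0.95 in KO mouse 1, against -3.21 to -2.23 in the other KO mice. The median of this list was -0.11, -0.19, 0.14 and 0.50 in WT mice 1 to 4 and 0.19, 0.38, -0.19 and 0.19 in KO mice 1 to 4. 0 of 12 tested clock genes were called, with a median of 0.07, among them *Arntl* at 0.16, *Clock* at -0.18 and *Per1* at 0.16. The signs of *Arntl* and *Per1* each rested on 1 KO mouse. *Arntl* was at 0.04 in KO mouse 1, against -0.91 to -0.31 in the other KO mice. *Per1* was at 3.66 in KO mouse 4, against 2.52 to 3.00 in the other KO mice. On the clock list WT mouse 1 again stood lowest in WT, at -0.40 with 9 of the 12 genes, and KO mouse 1 lowest in KO, at -0.22. In *Arntl* and *Clock* these same mice were instead the highest of their genotype, with *Clock* at 2.55 in WT mouse 1 and 2.40 in KO mouse 1. Genes of the list thus moved in opposite directions between mice, and its median does not stand for all of them. The part of feeding or time of day in the cholesterol genes was not tested.

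Of 13 SREBP pathway components, 1 was called, with a median of 0.05. Every KO value lay above every WT value in 2 of the 13, *Srebf1* and *Insig1* (3.84% of all genes), and below in 2 (5.89% of all genes), *Mbtps1* at -0.12 and *Mbtps2* at -0.19, which encode the proteases that cleave SREBP and are named here after their values were seen. *Srebf1* rose by 0.77 log2 units (standard error 0.20, adjusted p = 0.168), from 6.08, 6.72, 6.63 and 6.14 in the WT mice to 6.89, 6.87, 7.42 and 7.47 in the KO mice. All 4 KO values lay above the WT values. The call of *Srebf1* was lost with any 1 of the 8 mice left out (adjusted p from 0.205 to 0.284) and without a filter on dim probes (adjusted p = 0.377). *Insig1* encodes a protein that holds SCAP in the endoplasmic reticulum and is itself a known SREBP target. It had the largest difference of the list, 1.12 log2 units (standard error 0.33, 95% interval 0.36 to 1.88, adjusted p = 0.207; exact permutation p = 0.0286), and was not called. Its log2 signals were 0.78, 2.35, 1.97 and 2.14 in WT mice 1 to 4 and 2.6, 2.93, 3.37 and 2.82 in KO mice 1 to 4. WT mouse 1 stood far below the other WT mice. It was called without WT replicate 1, with a smaller difference of 0.78 (adjusted p = 0.183), and with the slide column as a block (adjusted p = 0.149). *Srebf2* had -0.20 (standard error 0.16, adjusted p = 0.657) and *Scap* 0.09 (standard error 0.10, adjusted p = 0.752). With 1 mouse left out *Srebf2* ran from -0.31 (without WT replicate 1) to -0.11 (without KO replicate 1). The SREBP1 isoforms were not told apart here, and an array does not read the cleavage of SREBP proteins.

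Fatty acid synthesis targets of SREBP1, several of which the study named from these same arrays, had 14 of 16 called and a median of 1.02. *Pnpla3*, a lipase gene of lipid droplets, is among the 14 and passed the filter through KO, being well above background on 1 of the 4 WT arrays. Of the 15 targets well above background on all arrays 13 were called, with a median of 1.02 as well. *Fasn*, the fatty acid synthase, rose by 1.69 log2 units (standard error 0.13, adjusted p = 0.00206) and *Acly*, which supplies cytosolic acetyl-CoA to both pathways, by 1.03 (standard error 0.07, adjusted p = 0.00206). The 2 targets not called were *Acaca*, at 0.57, and *Elovl6*, at 0.86 (adjusted p = 0.237). The median of this list lay between -0.15 and 0.08 in the WT mice, with WT mouse 1 at -0.01. WT mouse 1 was the lowest WT mouse in 6 of the 16 and the highest in 7. *Fasn* was lowest in it, at 6.62 against 6.95 to 7.20 in the other WT mice. Leaving out any 1 mouse kept its median between 0.92 and 1.05, with 10 to 15 of the 16 called. The difference between the 2 lists was not tested.

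**Figure D5:**
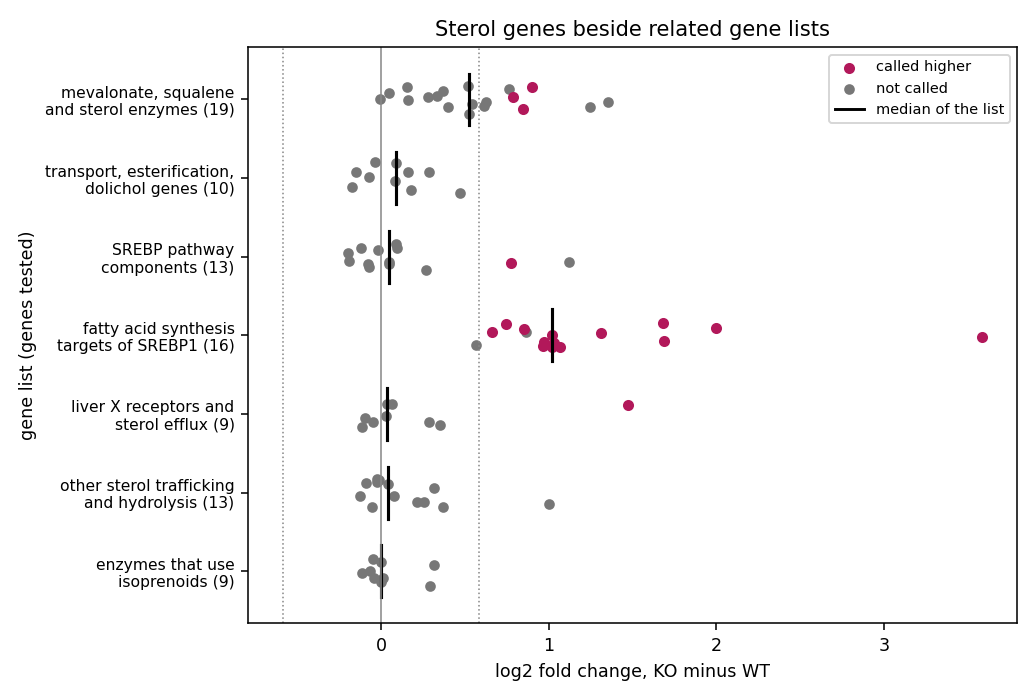
Log2 fold change, KO minus WT, of each tested gene in 7 lists, with the number tested in brackets, the median of a list as a black bar, called genes in magenta and dotted lines at a fold change of 1.5. The 19 synthesis enzymes have a median of 0.53, between the fatty acid targets at 1.02 and the other lists drawn at -0.00 to 0.09. The fasting and feeding genes, with a median of 0.46, are not among the lists drawn.

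Lists beside the pathway had medians near 0. Of 9 genes of liver X receptors and sterol efflux, *Pltp*, the phospholipid transfer protein, rose by 1.47 log2 units (standard error 0.16, adjusted p = 0.0118), and the median was 0.04. The receptors *Nr1h2* and *Nr1h3* had -0.09 and 0.04, and the efflux transporters *Abca1* and *Abcg1* 0.06 and -0.05. Of 13 other genes of sterol trafficking and hydrolysis 0 were called, with a median of 0.04. *Acat1*, the mitochondrial thiolase, had -0.02, and the carriers *Stard3* and *Stard5* -0.05 and 0.07. *Lipa*, the lysosomal lipase that frees cholesterol from its esters, was singled out after its values were seen. It had 0.32 (standard error 0.06, adjusted p = 0.0905) with every KO mouse above every WT mouse, and was short of the fold threshold. Of the 9 tested enzymes that use isoprenoids for prenylation, ubiquinone or dolichol, 0 were called, with a median of -0.00, among them the prenyltransferase genes *Fnta* at -0.05 and *Pggt1b* at 0.32 (adjusted p = 0.835). The sign of *Pggt1b* rested on KO mouse 1, at 0.599 where the other KO mice were at -1.85 to -1.63, and without it the difference was -0.26.

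Markers of liver cell types were read beside these results. The brightest probe of each list is named because it weighs most in the sum, and brightness does not rank transcripts of different genes. 8 of 8 hepatocyte markers were tested and 0 called, with *Alb* and *Serpina1c* brightest, and their summed linear signal, in units of the 75th percentile of the array, came to 5947, 6062, 5528 and 6061 for WT and 5720, 5872, 5643 and 5694 for KO. WT mouse 1 did not stand apart in it. Of 10 Kupffer cell and leukocyte markers, *Marco*, a scavenger receptor, fell by 1.22 on the log2 scale (adjusted p = 0.0983) and 9 were not called. That call was lost without WT replicate 3 (adjusted p = 0.210), without KO replicate 2 (0.213) and without a filter on dim probes (0.233). 2 of the 10 lay above 0 and 8 below, with a median of -0.11. *Cd5l* had the brightest probe, and their summed signal was 94.4, 121, 127 and 155 in WT and 80.0, 123, 133 and 119 in KO. 0 of 7 stellate cell markers were called, and 6 of the 7 lay below 0, with a median of -0.11. *Pdgfrb*, a growth factor receptor, had -0.45 (adjusted p = 0.311) with every KO mouse below every WT mouse, and *Col1a1*, a collagen gene, had -0.95 (adjusted p = 0.416). *Lrat*, the 1 marker above 0, had 0.50 (adjusted p = 0.272), with all 4 KO values above the WT mean. All of these stellate genes were named after their values were seen. WT mouse 2 was the highest WT mouse in 6 of the 7 (median 0.40), and *Col1a1* was at 1.82 in it, against -0.30 to 0.28 in the other WT mice. The sums, mostly of *Dcn*, were 103, 116, 91.3 and 105 in WT and 89.9, 92.5, 97.4 and 96.7 in KO. 0 of 5 endothelial markers were called, with *Clec4g* brightest and sums from 77.5 to 80.7 in WT and from 70.7 to 83.8 in KO. 2 of 4 cholangiocyte markers were tested and 0 called, *Krt19* at 0.17 and *Sox9* at -0.64 (adjusted p = 0.360), with sums from 0.992 to 1.29 in WT and from 0.758 to 1.34 in KO. The sign of *Krt19* rested on WT mouse 1, at -1.93 against -1.49 to -0.80 in the other WT mice. Of 7 pancreatic acinar markers 5 were tested and 0 called, *Pnlip* and *Cpa1* were not well above background on any array, and the sums, mostly of *Cela1*, ran from 34.0 to 49.2 in WT and from 20.8 to 35.4 in KO. *Cela1* itself had -0.54 (adjusted p = 0.292) with every KO mouse below every WT mouse. Of the 5 tested acinar markers 3 lay above 0 and 2 below, with a median of 0.15. The part of cell composition in the cholesterol genes was not tested.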

How the data were processed

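Liver RNA of 8 mice was labeled with Cy3, 1 array per mouse. Scanner output of Agilent Feature Extraction (version 10.7.1.1 per the file headers) was deposited for each array, and its processed signal is a background-corrected intensity on a linear scale. The authors also deposited a table of log2 values, which equals the log2 of these intensities minus a constant per array and was used as an alternative.

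Outlier and control spots were left out (86 to 150 outliers per array, 0 saturated spots), spots of a probe were averaged, and the log2 of the 75th percentile of each array was subtracted. Of 56605 probes, 29067 were kept because every array of 1 genotype or of both read them well above background. Genotypes were compared across all probes kept by lmFit and eBayes (limma 3.58.1, R 4.3.3), with two-sided tests and Benjamini-Hochberg adjustment. Thresholds follow the study's volcano plot, whose legend does not say whether p was adjusted. Replicates are separate mice, and the replicate number is also the slide column. Symbols came from RefSeq GRCm38.p6 through transcript accessions (32994 of 56605 probes named), and promoter windows from the same build. The file headers name the older mouse build mm9, so no probe position is given. Probes of related genes can bind the same RNA, which was not tested. Simulated data were used to check the fit.

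The members, the other lists and the tests were chosen with earlier results of these data known. All members were to be named by role, with every value for those called, with separate groups or with an adjusted p under 0.2. Of the other lists the called genes and up to 4 more in listed order were eligible. Some genes of the pathway are not reported here. Alternatives were normexp background correction (on the median spot signal), quantile and median scaling, the deposited log2 values, no filter and a strict filter on dim probes, outlier spots kept, eBayes with trend and robust options, a replicate block, each array left out, other thresholds, and a mean over all probes of a gene.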

Additional observations from a re-analysis of the deposited data

Results flagged for a closer look

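In *Ebp*, the sterol isomerase, 1 mouse of each genotype lay apart from the other 3 by Dixon's test. The log2 signal of WT replicate 4 was 7.97, and those of the other WT mice were 8.10 to 8.12. That of KO replicate 3 was 8.35, and those of the other KO mice were 8.03 to 8.05. 60 groups of 4 mice were examined, the 29 tested members and *Agpat3* in both genotypes, and chance alone would mark about 1 in 20.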

How the results depend on the processing

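The number of members called higher was 3 with all 8 arrays and 1 to 6 with 1 array left out. It was 1 with no filter on dim probes, where p is adjusted over more probes, 0 at an adjusted p under 0.05 (11 members had an unadjusted p under 0.05) and 0 at a fold change over 2. With the replicate block it was 1. The deviations of same-numbered mice, which share a slide column, correlated at 0.33, -0.11, 0.10 and 0.32, so 1 of the 4 pairs went the other way. WT mice 1, 3 and 4 each correlated most with the KO mouse of their own number, and WT mouse 2 with KO mouse 3. No label ties the numbers to litters or batches. The numbers were not taken as pairs in the main fit, and whether they mark pairs was not settled. The number called higher was 3 or 4 under the other alternatives. *Pmvk* was called under all 18 alternatives other than thresholds, and *Fdps* and *Lss* under 10. The number called lower was 0 throughout, with 0 members lower at an unadjusted p under 0.05 with all arrays. Probes called higher and lower numbered 273 and 211, and 180 and 65 under normexp, 122 and 131 with no filter, 82 and 35 at an adjusted p under 0.05, 557 and 645 with no minimum fold change, 100 and 60 at a fold change over 2, and 152 to 334 and 105 to 311 with 1 array left out. With probes well above background on all 8 arrays, 125 were called lower.

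Signs turned in 9 of 522 values of single members, all with differences near 0. *Idi1* (0.16 with all arrays) was -0.020 without WT replicate 1 and -0.0043 without KO replicate 3, and ran from -0.020 to 0.301 with 1 array left out. *Ggps1* (-0.0081) was 0.033 under normexp, 0.029, 0.031 and 0.016 without WT replicate 3, WT replicate 4 or KO replicate 3, and ran from -0.062 to 0.031. *Ebp* (0.046) was -0.032 without KO replicate 3 and ran from -0.032 to 0.075. *Nus1* (-0.036) was 0.0053 without WT replicate 1 and 0.0072 without KO replicate 1, and ran from -0.091 to 0.0072. The cause of these changes was not tested. Arrays have no depth, and signal over background limits dim probes.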
